A study of Homo sapiens with 9 samples.

Results

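The members described here are 10 genes of the MYC network and the D-type cyclins, followed on 9 Affymetrix arrays of SK-N-AS, a human neuroblastoma cell line without MYCN amplification. They are MYC and MYCN, their partner MAX, the MAX-binding repressors MXI1, MXD1, MXD4 and MNT, and the cyclin genes CCND1, CCND2 and CCND3. Every probe set that the array annotation assigns to 1 of these genes was taken, which gave 30 of the 41091 probe sets that name 1 gene. The 3 probe sets of MXD4 also name a microRNA gene and cannot be assigned to either, so no value of MXD4 is given. The arrays form 3 series: cells given full-length NRSF (construct RE-EX1), cells given a shortened NRSF (construct HZ4, called the truncated series) and cells left untreated, each sampled at 0, 24 and 48 h. NRSF is the neuronal gene repressor encoded by REST. Each of the 9 groups holds 1 array, the labels give no replicate or batch number, and no group is labelled as given a construct without NRSF. The series description speaks of triplicates over 3 batches, which the 9 listed arrays do not show. The 3 series therefore served as repeats of the time course. A p-value over time here reflects how far the series differ in their course. That spread holds technical differences and any effect of the constructs, which cannot be told apart. Where 3 signals are given for an hour, they stand in the order full-length, truncated, untreated.

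MYC and MYCN are transcription factors that bind DNA at E-boxes as dimers with MAX and activate genes of growth and ribosome production. MXD1, MXI1, MXD4 and MNT compete for MAX and, as dimers with it, recruit SIN3 corepressors to the same sites. D-type cyclins activate CDK4 and CDK6, which phosphorylate RB and let cells leave G1. In neuroblastoma, amplification of MYCN marks high-risk disease, and lines without it often depend on MYC.

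The E-box letters are the sites these dimers share, so promoter sequences of repressor members are shown for them. RefSeq promoter windows (GRCh38.p14) were at hand for 7 of the 10 genes, 12 windows in all, and MYC, CCND1 and CCND2 were not analysed for sequence. The 250 bases before each start were searched on both strands for CACGTG (E-box), TGANTCA (AP-1 site), TGACGTCA (cAMP response element), GGGCGG (GC box) and TTTCGCGC (E2F site). An E-box was found in the windows of MNT and MXD4, 2 of 12 windows, and 6.34% of all 35116 windows hold one. A GC box was found in 10 of the 12 windows, against 42.6% of all windows, and an E2F site in the MYCN window alone, against 0.439%. AP-1 sites (6.57% of all windows) and cAMP response elements (1.65%) were in none of the 12. Capitals mark the E-box in MNT and MXD4 and the GC boxes in MXD1, and all 3 sequences run 5′ to 3′ on the gene's strand. MXD1 is shown because it is the member whose signal changed most over time, and its window holds no E-box, AP-1 or cAMP response element letters. The windows are MXD1 at chr2:69914859-69915108 (plus strand), MNT at chr17:2401061-2401310 (minus strand) and MXD4 at chr4:2262110-2262359 (minus strand).
MXD1: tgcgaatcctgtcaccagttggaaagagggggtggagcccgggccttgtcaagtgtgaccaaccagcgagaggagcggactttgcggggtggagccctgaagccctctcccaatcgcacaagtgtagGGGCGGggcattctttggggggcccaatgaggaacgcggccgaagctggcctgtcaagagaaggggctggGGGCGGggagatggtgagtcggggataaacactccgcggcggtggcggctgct
MNT: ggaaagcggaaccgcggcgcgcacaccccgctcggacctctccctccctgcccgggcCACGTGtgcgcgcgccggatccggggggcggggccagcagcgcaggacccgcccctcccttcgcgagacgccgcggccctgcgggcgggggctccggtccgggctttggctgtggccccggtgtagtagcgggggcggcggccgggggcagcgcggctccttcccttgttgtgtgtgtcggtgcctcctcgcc
MXD4: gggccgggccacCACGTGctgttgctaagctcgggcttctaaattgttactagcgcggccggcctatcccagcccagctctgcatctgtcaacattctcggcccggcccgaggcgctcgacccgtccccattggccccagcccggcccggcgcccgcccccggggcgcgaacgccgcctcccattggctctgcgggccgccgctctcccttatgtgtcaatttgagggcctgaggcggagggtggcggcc

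All arrays were scaled by the authors to 1 trimmed mean, 149.98 in the deposited signals, and median signals lay between 30.87 and 42.67. The truncated 24 h array stood apart: its median correlation with the other arrays was 0.909, against 0.922 to 0.931 for the others, and the dimmest 20% of genes read 0.52 log2 above their mean there. Signals were floored at 8.266, and 13799 genes whose mean log2 signal passed 4.2 were tested, each by its brightest probe set. Of the members, 8 genes passed and 16 of their probe sets, while CCND2 had no probe set that passed. Fixed markers were read beside the neuroblastoma label, and 11 of 16 sympathoadrenal and 12 of 14 mesenchymal genes passed. A probe set was at hand for 14 and 13 of them. Of all 19775 genes with a probe set 13799 passed, so passing does not by itself mark a cell type. Sympathoadrenal markers summed to 3078 to 3951 at 0 h, 2796 to 3327 at 24 h and 3206 to 3522 at 48 h. GATA3 signal was 1346 to 1912 and VIM signal 9354 to 14400, whereas TH and DBH, the catecholamine enzymes, were dim, with mean signals of 16.67 and 20.48. The summed signal of the mesenchymal markers was 33120 to 38950 at 0 h, 23810 to 28360 at 24 h and 27820 to 33380 at 48 h. Epithelial markers summed to 2609 to 3968 at 0 h, 3621 to 4536 at 24 h and 5757 to 6408 at 48 h, nearly all from KRT18 (a probe set that can match other sequences), with 3 of 8 passing and EPCAM between 2.803 and 21.1. Blood markers summed to 148.6 to 194.6 at 0 h, 179.7 to 258.3 at 24 h and 238.6 to 267.9 at 48 h, with 3 of 8 passing, and endothelial (1 of 6) and Schwann or melanocyte markers (3 of 8) overlapped between 0 and 48 h. In bulk RNA, fewer cells of a type and less RNA per cell cannot be told apart. The mesenchymal sum was lower at 24 h than at 0 h, and the epithelial and blood sums were higher at 48 h than at 0 h, each without overlap. Mesenchymal markers did not all move alike: 2 of 12 were called higher and 6 lower at 24 h, beside 8.04% and 8.2% of all genes. The blood marker PTPRC read 57.78, 74.56 and 106.9 at 0 h and 134.6, 175.4 and 173.5 at 48 h. MXD1, MYC and MAX below also changed with time, and the part of the marker sums in those results was not tested.

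By brightest probe set, MXD1, MYC and MAX were called higher at 24 h in SK-N-AS cells, and MXD1 and MAX at 48 h. The MAX calls were lost in 7 of 14 alternative settings at 24 h and in 9 of 14 at 48 h, and its probe sets differed. The MYC call was lost in 5 of 13. MXD1, whose product antagonizes MYC on shared sites, rose 7.58-fold at 24 h, and MYC rose 1.57-fold. No member gene was called lower at 24 h, although MXI1, MNT and CCND3 were lower in 3 of 3 series. The 3 of 8 member genes called at 24 h over 0 h, all upward, compare with 16.2% of all genes called (8.04% upward), and the 2 of 8 at 48 h over 0 h compare with 8.38% (4.5% upward). The groups did not overlap for 4 of 8 member genes at 24 h against 0 h (29.8% of all genes), for 2 of 8 at 48 h against 0 h (27.7%) and for 1 of 8 at 48 h against 24 h (20.9%). The median difference of the 8 genes was 0.02 log2 at 24 h and 0 at 48 h, beside −0.03 and −0.01 over all genes tested.

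**Figure D1:**
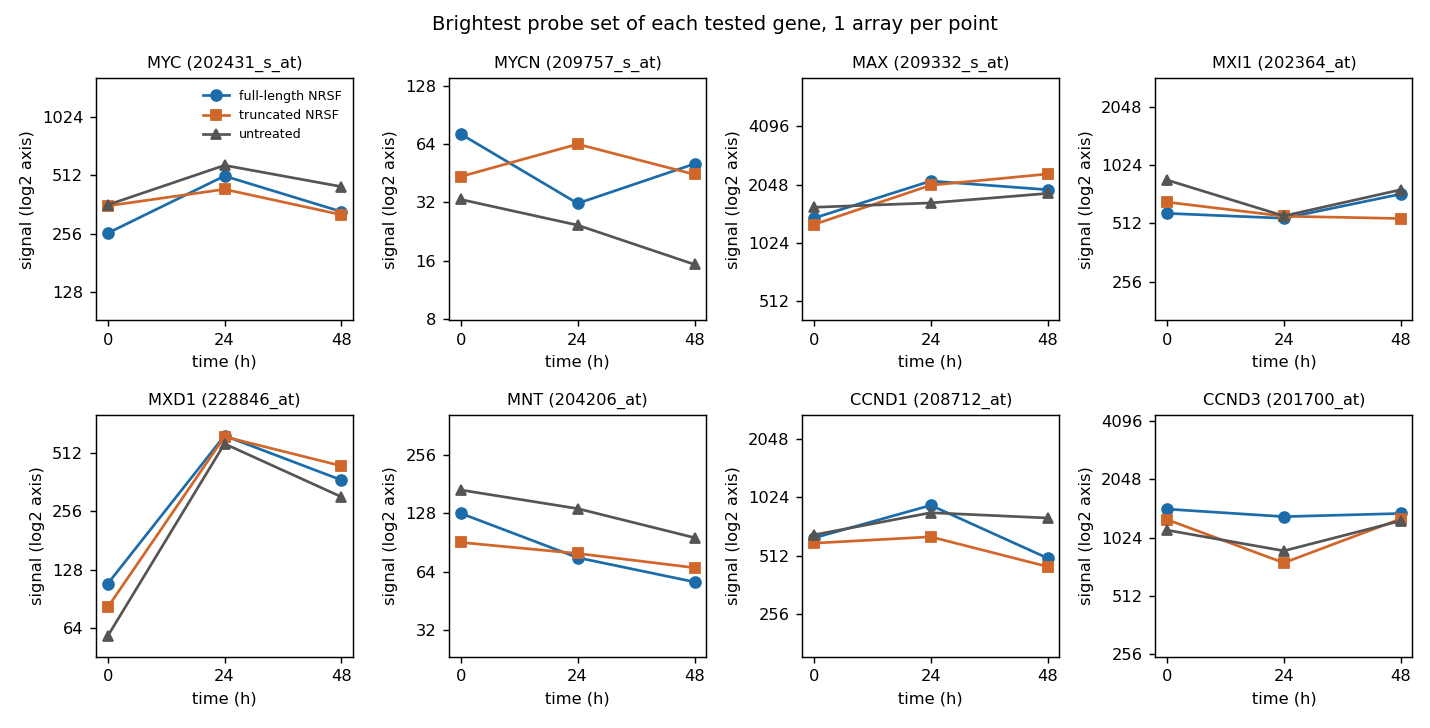
Signal (log2 axis) of the brightest probe set of each tested member against time in hours, with 1 array per point and 1 line per series. MXD1 climbs in all 3 series from 58.16 to 108.3 at 0 h to 572.4 to 630 at 24 h, while MYCN has no common course.

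MYC itself, the activator at the head of the network (chr8:127735434-127742951, GRCh38.p14), is read by 1 probe set, 202431_s_at, shared by several transcripts. Its signal was 257.8, 356.7 and 360.7 at 0 h, 508.8, 434.4 and 577.4 at 24 h, and 332.9, 321 and 448.2 at 48 h. All 3 arrays at 24 h were above all 3 at 0 h, and the 48 h arrays overlapped both. MYC rose by 0.65 ± 0.18 log2 (SE, 3 arrays per time) at 24 h, with a limma adjusted p of 0.0204. At 48 h it differed from 0 h by 0.18 log2 (limma adjusted p = 0.614) and from 24 h by −0.47 log2 (adjusted p = 0.172, lower in all 3 series). The call at 24 h was lost without the full-length series (0.48, limma adjusted p = 0.229) and without the untreated series (0.63, adjusted p = 0.111). It was also lost with arrays centred on their median (0.58, limma adjusted p = 0.181), with no filter on dim genes (0.0589) and with no mean-variance trend (0.105).

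MYCN, the paralogue that is amplified in many aggressive neuroblastomas (chr2:15940550-15947004), was dim. Of its 10 probe sets, 1 passed the filter (209757_s_at), and the other 9 ranged from 0.8838 to 47.15, each at or under the floor on 2 to 9 of the 9 arrays. On 209757_s_at the signal was 72.05, 43.48 and 33.14 at 0 h, 31.62, 63.93 and 24.42 at 24 h, and 50.57, 44.6 and 15.31 at 48 h. The times overlapped, and the series took different courses. MYCN differed by −0.36 ± 0.54 log2 at 24 h (limma adjusted p = 0.729) and by −0.53 ± 0.54 at 48 h (0.617), with 95% intervals of −1.50 to 0.79 and −1.67 to 0.61. The interval at 24 h holds 0 and also the 0.65 log2 of MYC, so a difference between MYC and MYCN in their response was not detectable at this signal. Each probe set has its own affinity, so the signals do not order the 2 transcripts by amount. As a place among all probe sets of an array, the MYC probe set lay between the 82.9th and the 90.8th percentile and the MYCN probe set between the 34.1st and the 64.9th.

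**Figure D2:**
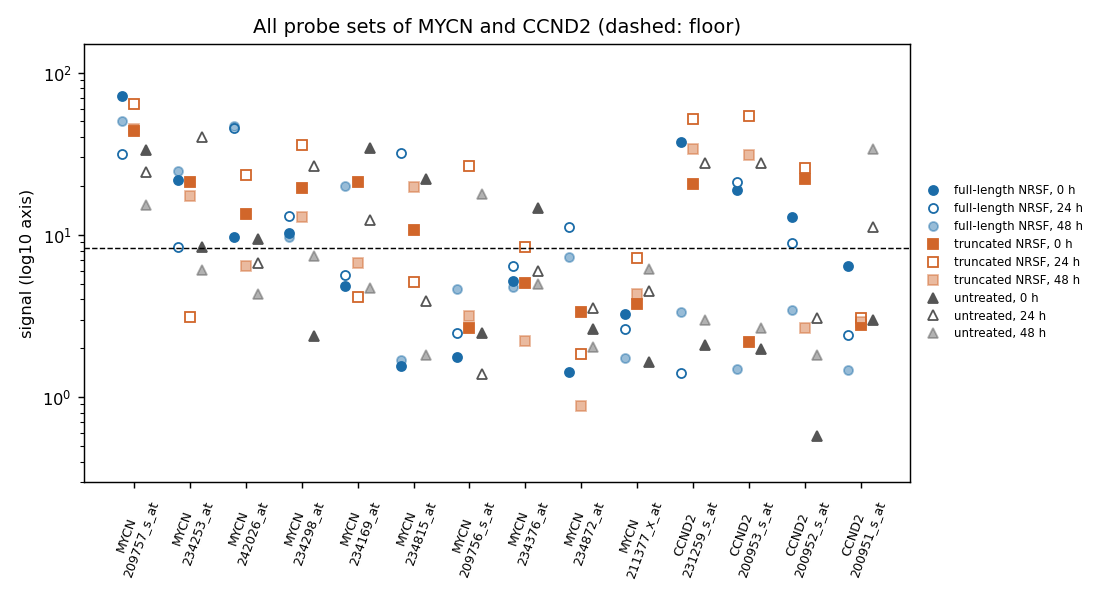
Signal (log10 axis) of all 10 MYCN and 4 CCND2 probe sets on the 9 arrays, with the floor of 8.266 as a dashed line. The MYCN probe set 209757_s_at is above the floor on all 9 arrays, and each of the other 13 is at or under it on at least 2 arrays.

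MAX (chr14:65006101-65102695), a partner with which MYC and MXD proteins bind E-boxes, had 5 probe sets, and all 5 passed. On the brightest, 209332_s_at, the signal was 1375, 1275 and 1565 at 0 h. It was 2138, 2034 and 1648 at 24 h and 1928, 2324 and 1845 at 48 h. All later arrays were above all 0 h arrays, and the untreated series had the smallest difference, 0.08 log2 at 24 h. MAX rose by 0.46 ± 0.15 log2 at 24 h (limma adjusted p = 0.0466) and by 0.53 ± 0.15 at 48 h (0.0392). Leaving out 1 series ended the call at 48 h in each case, with 0.55, 0.36 and 0.68 log2 without full-length, truncated or untreated arrays (limma adjusted p = 0.176, 0.263 and 0.0535). At 24 h it ended without the full-length series (0.37, limma adjusted p = 0.278), the truncated series (0.36, 0.235) or the truncated 24 h array (0.44, 0.14).

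The MAX probe sets differed among themselves. In a fit over all 26480 probe sets, 209332_s_at missed the threshold at 24 h (limma adjusted p = 0.0547), and 214108_at rose by 1.34 ± 0.33 log2 at 24 h (limma adjusted p = 0.0114), from 43.98, 46.64 and 60.73 at 0 h to 122.4, 124.9 and 131.9. These arrays did not overlap, and at 48 h the signal was 85.54, 79.77 and 97.12, between both. That call was lost without any 1 series, with 1.27 to 1.45 log2 and limma adjusted p of 0.0957, 0.0686 and 0.0547. It was also lost without the truncated 24 h array (1.29, limma adjusted p = 0.0561). The second brightest MAX probe set, 209331_s_at, differed by −0.16 log2 (limma adjusted p = 0.684), and its 0 h and 24 h arrays overlapped. The 2 probe sets marked as possibly matching other sequences, 210734_x_at and 208403_x_at, differed by 0.54 and 0.50 log2 and were not called. At 48 h over 0 h only 209332_s_at was called among the MAX probe sets (0.53, limma adjusted p = 0.0472). There 209331_s_at, 210734_x_at, 208403_x_at and 214108_at differed by 0.07, 0.39, 0.41 and 0.80 log2 (limma adjusted p = 0.89, 0.363, 0.54 and 0.176).

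MXD1 (chr2:69915109-69942945), a repressor that accumulates as many cell types stop dividing and differentiate, gave the largest change of any member. On 228846_at the signal was 108.3, 81.92 and 58.16 at 0 h. It was 630, 622.3 and 572.4 at 24 h, and 371.7, 440 and 304.5 at 48 h. The 3 times did not overlap, with every 48 h array between the 0 h and the 24 h arrays. MXD1 rose by 2.92 ± 0.21 log2 at 24 h (limma adjusted p = 1.29e-07) and by 2.20 ± 0.21, or 4.59-fold, at 48 h (adjusted p = 1.13e-05). The step from 24 to 48 h was −0.72 log2 (limma adjusted p = 0.0657), lower in 3 of 3 series and not called. At 24 h the call held in 14 of 14 alternative settings, at 1.79 to 3.11 log2. At 48 h it held in 13 of 14 and was lost with the mean of all MXD1 probe sets (1.48, limma adjusted p = 0.052).

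A second MXD1 probe set moved the same way and by less. On 226275_at the signal was 162.7, 128.6 and 139.4 at 0 h, 348.3, 452.6 and 277.7 at 24 h, and 314, 296.7 and 275.2 at 48 h. All later arrays were above all 0 h arrays. It rose by 1.30 ± 0.21 log2 at 24 h (limma adjusted p = 0.000521) and by 1.05 ± 0.21 at 48 h (0.00665), the latter lost in 3 of 12 settings, among them without the full-length series (1.09, limma adjusted p = 0.0674). The third, 206877_at, ran from 1.933 to 88.01 with 5 of 9 arrays above the floor and was not called.

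MXD1 on its brightest probe set, 228846_at, changed by more than MYC within each series. MXD1 exceeded its 0 h array by 2.54, 2.93 and 3.30 log2 at 24 h, series by series in the order above, and MYC by 0.98, 0.28 and 0.68. The MXD1 change minus the MYC change was thus 1.56, 2.64 and 2.62 log2 at 24 h and 1.41, 2.58 and 2.08 at 48 h, positive in 6 of 6. With the other called MXD1 probe set, 226275_at, described above, the same difference was smaller: 0.12, 1.53 and 0.32 log2 at 24 h and 0.58, 1.36 and 0.67 at 48 h. It was thus near 0 in the full-length series at 24 h, and the size of the gap differed with the probe set read. Both times share the 0 h array of their series, so these are 3 series and not 6 independent values.

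The other 2 repressors that could be read, MXI1 and MNT, were not called at either time. MXI1 (chr10:110207605-110287365) signal was 576.9, 659.5 and 857.3 at 0 h, 544.3, 557.7 and 559.5 at 24 h, and 725.3, 542.6 and 763.8 at 48 h. All 24 h arrays were below all 0 h arrays, but by −0.31 ± 0.17 log2, which was not called (limma adjusted p = 0.232). MNT (chr17:2384073-2401060), which pairs with MAX in dividing and resting cells alike, read 127.8, 90.44 and 168.6 at 0 h on 204206_at, 75.47, 79.32 and 135.1 at 24 h, and 56.55, 66.97 and 95.66 at 48 h. It was lower in 3 of 3 series at both times, but the times overlapped, because the untreated series was the highest of the 3 at every hour. MNT differed by −0.42 ± 0.31 log2 at 24 h (limma adjusted p = 0.412) and by −0.81 ± 0.31 at 48 h (0.121, 95% interval −1.46 to −0.16). A second MNT probe set, 236749_at, had 6 of 9 arrays above the floor, from 2.555 to 86.25. It differed by 0.97 log2 at 24 h and by −0.05 at 48 h and was not called. By brightest probe set, MXD1 thus rose, while the MXI1 estimate at 24 h and the MNT estimates at both times lay below 0. The MXI1 estimate at 48 h was −0.04 log2. The difference between these genes was not tested.

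**Figure D3:**
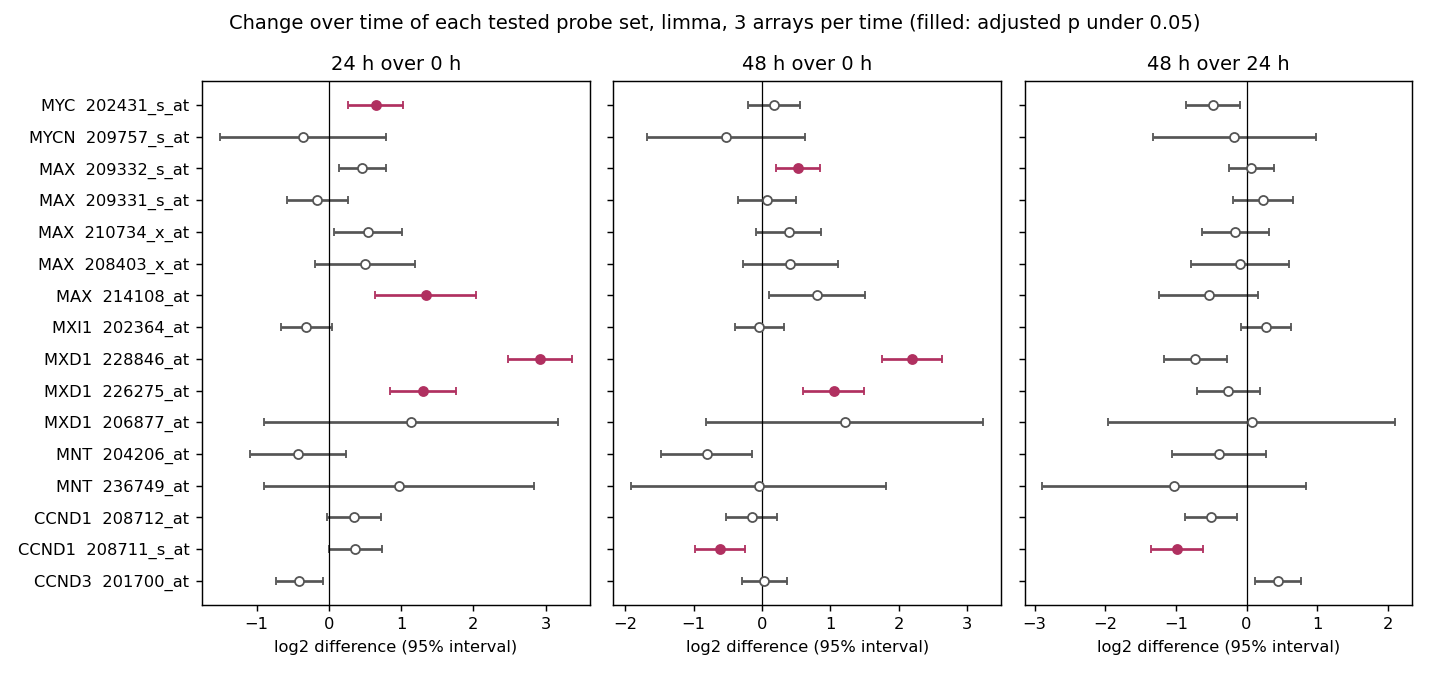
Log2 difference with its 95% interval for each of the 16 tested member probe sets, in 3 panels for 24 h over 0 h, 48 h over 0 h and 48 h over 24 h, from limma over 3 arrays per time. Filled points have an adjusted p under 0.05: 4 probe sets at 24 h over 0 h, all upward, 4 at 48 h over 0 h and 1 at 48 h over 24 h.

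Of the D-type cyclin genes, none was called over time by its brightest probe set, and CCND1 was called by its other one. CCND1 (chr11:69641156-69654474) signal on 208712_at was 632.9, 595.2 and 656.6 at 0 h, 933.3, 641.9 and 854.7 at 24 h, and 498, 450.5 and 802.7 at 48 h. The times overlapped, with the untreated 48 h array standing above both construct arrays. CCND1 differed by 0.35 ± 0.17 log2 at 24 h (limma adjusted p = 0.2, higher in 3 of 3 series), by −0.15 at 48 h (0.659) and by −0.50 from 24 to 48 h (0.132). On 208711_s_at the signal was 576.3, 537.8 and 444.4 at 0 h, 682.4, 559.7 and 772.8 at 24 h, and 336.2, 337.4 and 337.7 at 48 h. All 48 h arrays were below all earlier ones and close to each other. This probe set fell by 0.62 ± 0.18 log2 from 0 to 48 h (limma adjusted p = 0.0439) and by 0.98 ± 0.18 from 24 to 48 h (0.00484).

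The signal of 208711_s_at fell in 3 of 3 series in both comparisons, but its calls depended on the arrays kept. The call for 48 h over 0 h was lost without the full-length, the truncated or the untreated series (−0.53, −0.59 and −0.73 log2, limma adjusted p = 0.275, 0.137 and 0.0789). The call for 48 h over 24 h was lost without the full-length series (−0.96, limma adjusted p = 0.0663) or the untreated series (−0.88, 0.0577). The 2 CCND1 probe sets differ most in untreated cells at 48 h, where 208712_at was 0.29 log2 above its 0 h array and 208711_s_at −0.40 from it.

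CCND3 (chr6:41934933-42050035) and CCND2 (chr12:4273762-4305353) had no called change. On 201700_at CCND3 read 1439, 1271 and 1121 at 0 h, 1316, 760.2 and 876.3 at 24 h, and 1366, 1281 and 1252 at 48 h. The times overlapped, and the full-length series was the highest of the 3 at each hour. CCND3 differed by −0.41 ± 0.15 log2 at 24 h (limma adjusted p = 0.0839, lower in 3 of 3 series) and by 0.03 at 48 h (0.93). The 4 CCND2 probe sets were between 0.575 and 53.94, each above the floor on 2 to 5 of 9 arrays, so no level or change of CCND2 could be read. The second CCND3 probe set, 1562028_at, was equally dim, from 2.168 to 26.11.

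At the level of probe sets, 4 of 16 were called at 24 h over 0 h, all upward, beside 13.1% of all probe sets (6.62% upward). At 48 h over 0 h, 3 of 16 rose and 1 fell, beside 6.22% of all (3.26% up, 2.96% down). From 24 to 48 h 1 of 16 fell, beside 2.63% of all called (1.46% down). By brightest probe set, limma called 0 of 8 member genes from 24 to 48 h, beside 3.5% of all genes. There were 4 of 8 at an unadjusted p under 0.05 (MYC, MXD1, CCND1 and CCND3), beside 17.9% of all genes.

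The next comparison asked whether the change from 0 h differed between a construct series and untreated cells, and no member passed the test. Its term is the change of a construct series from its own 0 h array, over 24 and 48 h, minus the same change in untreated cells, so it is not a difference in level. The full-length and the truncated construct each called 0 of 8 genes and 0 of 16 probe sets with limma, beside 0.00725% and 0.0362% of all genes and 0 and 0.00755% of all probe sets. At an unadjusted p under 0.05 there were 0 of 8 genes for each, beside 4.19% and 7.65% of all genes, and 1 and 0 of 16 probe sets, beside 4% and 6.52% of all probe sets. The term takes 24 and 48 h as repeated readings and has 2 residual degrees of freedom, and both constructs share the untreated arrays. For MYC the difference in change was 0.18 log2 with full-length NRSF (95% interval −0.59 to 0.95) and −0.43 with truncated NRSF (−1.20 to 0.34). For MXD1 it was −0.68 (−1.58 to 0.21) and −0.17 (−1.06 to 0.73). MXD1 signal on 228846_at went from 58.16 to 572.4 at 24 h in untreated cells too. On this probe set the change from 0 h was estimated as smaller with either construct, without passing the test. The other MXD1 probe sets did not share that direction, and none was called. On 226275_at the difference in change was 0.04 log2 with full-length and 0.52 with truncated NRSF, and on the dim 206877_at 0.96 and 1.28. For MAX the difference in change was 0.41 (−0.22 to 1.03) with full-length and 0.61 (−0.01 to 1.23) with truncated NRSF. For CCND1 it was −0.23 (−0.99 to 0.53) and −0.48 (−1.24 to 0.28), for CCND3 0 (−0.69 to 0.69) and −0.27 (−0.96 to 0.42). The intervals for MXI1 were −0.20 to 1.23 and −0.58 to 0.84, for MNT −1.85 to 1.05 and −1.19 to 1.71, and for MYCN −2.58 to 2.43 and −1.43 to 3.58. Each of these intervals is wide and holds 0, so a difference in change within it cannot be told from 0 with these arrays.

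In level at matched hours, with 1 array on each side, no replicate check and the 0 h arrays not subtracted, MYC was below untreated on each construct array. The full-length arrays differed by −0.48 log2 at 0 h, −0.18 at 24 h and −0.43 at 48 h, and the truncated arrays by −0.02, −0.41 and −0.48. MNT on 204206_at was also below untreated at each hour, by −0.40, −0.84 and −0.76 with full-length and −0.90, −0.77 and −0.51 with truncated NRSF. For both genes the difference stood at 0 h already, except for MYC in the truncated series. MXD1 on 228846_at was above untreated at each hour, by 0.90, 0.14 and 0.29 with full-length and 0.49, 0.12 and 0.53 with truncated NRSF. CCND1 on 208712_at differed by −0.69 and −0.83 at 48 h, where 208711_s_at differed by −0.01 and 0.

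Around the members, 9 lists of genes of the same network were counted, and the lists share members such as CDKN1A and PTMA. The lists were chosen with earlier results of these data known, so their counts are a description. Their counts stand beside 8.04% of all genes called upward and 8.2% downward at 24 h over 0 h (16.2% in all), and 4.5% upward and 3.88% downward at 48 h over 0 h (8.38% in all). Of 10 other MYC, MAX and MLX network genes, 5 were tested. At 24 h 1 of 5 rose, MGA, which also dimerizes with MAX (0.69 ± 0.18 log2, limma adjusted p = 0.0153), and none fell. MLX, the MAX-like partner of the MLXIP proteins, rose at 48 h (0.54 ± 0.14, limma adjusted p = 0.0246), and MGA and MLX each lost that call in 8 of 14 settings. Of 24 tested MYC cofactors and turnover genes, 0 rose and 5 fell at 24 h, beside 16.2% of all genes called (8.2% downward), with a median of −0.29 log2 beside −0.03 over all genes. They were SKP2, an F-box protein for MYC and p27 (−1.37 ± 0.21, limma adjusted p = 0.000419), on a probe set that can match other sequences, CIP2A, EP400, HCFC1 and AURKA, the kinase that stabilizes MYCN (−0.52 ± 0.14, 0.0201). AURKA (−0.68), HCFC1 (−0.84) and SKP2 (−0.87) were also called at 48 h, 3 of 24 beside 8.38% of all genes. At 48 h the HCFC1 and SKP2 calls were each lost in 8 of 13 settings, and HCFC1 was lost in 9 of 13 at 24 h.

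Of 35 classic MYC target genes tested, 2 rose and 6 fell at 24 h, beside 8.04% of all genes upward and 8.2% downward, with a median of −0.08 log2 beside −0.03 over all genes. ODC1, the rate-limiting enzyme of polyamine synthesis, read 1346, 1364 and 1403 at 0 h, 6186, 7001 and 6368 at 24 h, and 3691, 3125 and 3698 at 48 h. The 3 times did not overlap. ODC1 rose by 2.25 ± 0.14 log2 at 24 h (limma adjusted p = 4.06e-08) and by 1.35 at 48 h (2.31e-05). CAD, which starts pyrimidine synthesis, read 419.8, 582.7 and 600.8 at 0 h and 260.5, 281.5 and 292 at 24 h, with no overlap, and it fell by 0.93 ± 0.19 log2 (limma adjusted p = 0.00326). PTMA, on a probe set that can match other sequences, fell by 0.68 at 24 h. RRS1, a ribosome assembly factor, was called lower at 24 h (−0.66, limma adjusted p = 0.0324), but in untreated cells it read 513.5 at 0 h and 523.7 at 24 h. That call was lost in 8 of 14 settings, and the difference was −0.45 without the truncated series and −1.01 without the untreated series. NCL, which encodes nucleolin, differed by −0.17 log2 (limma adjusted p = 0.505), NPM1, which encodes nucleophosmin, by −0.08 (0.8) and LDHA, a glycolytic enzyme, by −0.43 (0.119). At 48 h 2 of 35 rose, beside 4.5% of all genes, ODC1 and the arginine methyltransferase gene PRMT5 (0.69 ± 0.16, limma adjusted p = 0.016), and CAD fell, a call lost in 9 of 14 settings.

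Of 21 tested genes that MYC is known to repress, 5 rose and 5 fell at 24 h, beside 8.04% and 8.2% of all genes, with a median of 0.10 log2 beside −0.03. CDKN1A, which encodes the CDK inhibitor p21, read 218.5, 221.4 and 129.4 at 0 h and 939, 871.3 and 707.9 at 24 h. It rose by 2.18 ± 0.22 log2 (limma adjusted p = 7.16e-06), and at 48 h, with 314.8, 222.4 and 347.5, it was 0.65 above 0 h and not called (0.0814). The growth arrest genes GADD45A (1.48 ± 0.14, limma adjusted p = 4.39e-06) and GADD45B (2.10 ± 0.33, 0.000414) rose as well. The collagen genes COL3A1 (−1.30 ± 0.15, limma adjusted p = 2.8e-05) and COL1A1 (−0.69 ± 0.14, 0.00357) fell, and both are among the mesenchymal markers above. At 48 h over 0 h 1 of 21 rose (GADD45B) and 2 fell.

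Downstream of the D-type cyclins, 1 of 22 G1 kinase, cyclin E, RB and E2F genes rose and 2 fell at 24 h, a share no higher than the 16.2% of all genes called, with a median of −0.06 log2. CDK7, the CDK-activating kinase, rose by 0.72 ± 0.18 (limma adjusted p = 0.0106), and TFDP1, the E2F partner, fell by 0.71 ± 0.14 (0.00213). E2F2 fell by 0.75 ± 0.24 at 24 h (limma adjusted p = 0.0448) and by 1.11 at 48 h (0.0097), and CCNE2, which encodes cyclin E2, fell by 0.96 ± 0.25 at 48 h (0.0286). CDK4 and CDK6, the D-type cyclins' own kinases, differed by −0.42 (limma adjusted p = 0.0703) and −0.22 log2 (0.522) at 24 h and were not called. Of 6 tested genes listed by a CDKN symbol, CDKN1A rose at 24 h and CDKN3 fell (−0.81 ± 0.17, limma adjusted p = 0.00308). CDKN1B, which encodes p27, differed by 0.02. Of 16 genes of D-type cyclin turnover and localization, AMBRA1, which brings D-type cyclins to a ubiquitin ligase, rose by 0.87 ± 0.26 at 24 h (limma adjusted p = 0.0303), a call lost in 9 of 14 settings. CUL7, a cullin, fell by 1.07 ± 0.25 at 24 h (limma adjusted p = 0.00723) and 0.86 at 48 h (0.0406), the latter lost in 7 of 14 settings. CDC20, an activator of the anaphase ubiquitin ligase, fell by 0.525 at 48 h (limma adjusted p = 0.0423), a call lost in 8 of 13 settings, and the median of the 16 was −0.29 at 24 h.

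Upstream, 28 tested genes were listed as inducers of MYC or D-type cyclin transcription, most of them transcription factors. Of these, 9 of 28 rose at 24 h and 2 fell, beside 8.04% and 8.2% of all genes, with a median of 0.19 log2. ATF3, a stress-induced factor, read 116.5, 120.5 and 33.59 at 0 h and 722.7, 876.9 and 804.8 at 24 h, and it rose by 3.36 ± 0.36 (limma adjusted p = 1.17e-05). EGR1 (2.24 ± 0.30, limma adjusted p = 0.000108), FOS (2.17 ± 0.31, 0.000205) and JUN (1.92 ± 0.21, 1.24e-05, on a probe set that can match other sequences), which are immediate early genes, rose too. At 48 h they differed from 0 h by −0.53, 0.09 and 0.18 log2 and were not called, and 2 of 28 rose, ATF3 (1.41) and KLF5 (1.21). Of 16 MYCN-linked neuroblastoma genes, 0 rose and 4 fell at 24 h, beside 8.2% of all genes downward, with a median of −0.31, led by the homeobox genes MEIS2 (−0.97 ± 0.13, limma adjusted p = 0.000132) and MEIS1 (−0.92 ± 0.16, 0.000938). PTMA and TWIST1 (−0.49, limma adjusted p = 0.0322) were the others, and TWIST1 is a mesenchymal marker here too. In the comparison of either construct with untreated cells, limma called no gene of these 9 lists. The series still differed in the size of some rises at 24 h. In the order full-length, truncated, untreated, ATF3 rose by 2.63, 2.86 and 4.58 log2. EGR1 rose by 1.55, 2.04 and 3.13, FOS by 1.31, 2.38 and 2.83, and JUN by 1.41, 1.72 and 2.63. Each of these rises was thus largest in untreated cells.

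**Figure D4:**
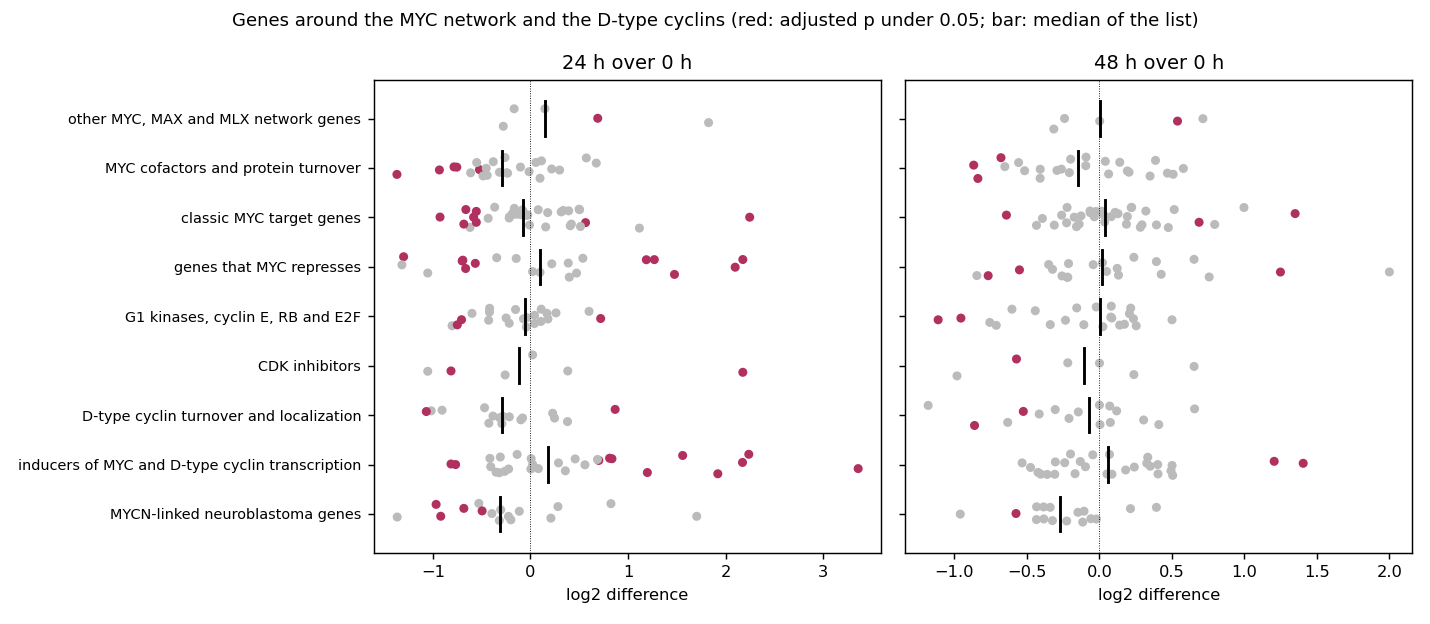
Log2 difference of each tested gene of the 9 lists at 24 h over 0 h and at 48 h over 0 h, with 1 point per gene, red where the limma adjusted p is under 0.05, and a bar at the median of the list. The point farthest to the right at 24 h is ATF3, at 3.36, among the inducers, and the list medians lie between −0.31 and 0.19.

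The genes whose signal ran most like that of MYC over the 9 arrays were ARC (Pearson r = 0.968), an immediate early gene of neurons, RNF138 (0.950), SPOCK1 (0.950), CTTNBP2NL (0.935) and LACTB (0.935). Like MYC, RNF138 was highest at 24 h in untreated cells (1475) and lowest at 0 h in the full-length series (633.5). For CCND1 they were MCRIP1 (0.952), ZNF616 (0.919), ARHGAP11A (0.917), ACTR6 (0.910) and ZNF354A (0.909). These are the highest of 13799 genes over 9 arrays that share 3 series and 3 times, and they are given as a description.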

How the data were processed

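RNA of SK-N-AS cells was measured on 9 arrays, 1 per series and time. Signals were produced by the authors with GCOS (submitters' processing notes) and deposited as an intensity on a linear scale for each probe set. GCOS version and settings: not given in the sources used here. From them, a floor at the 25th percentile (signal 8.266) was set and the log2 taken. Of 54675 probe sets (62 controls), 41091 named 1 gene, 1801 several and 11721 had no annotation; the last 2 kinds and the controls were left out. For 41037 probe sets the Entrez ID matched a RefSeq gene, whose symbol was used whether or not it differed. A gene was read by its brightest probe set and tested if its mean log2 passed 4.2, the 40th percentile. limma 3.58.1 in R 4.3.3 (lmFit, then eBayes with trend, two-sided tests) fitted series and time, with 4 residual degrees of freedom; the construct terms added 1 per construct at 24 and 48 h, with 2. Adjusted p is Benjamini-Hochberg over all 13799 genes, or over 26480 probe sets in a second fit, with a threshold of 0.05. The scripts were tested on simulated data. The number of arrays limits the precision. Probe sets ending in s_at are shared by several transcripts, and those ending in x_at may match other sequences and are uncertain. Named genes are all members, up to 4 called genes of each list with the largest change at 24 h and up to 2 more at 48 h, and the 5 genes most correlated with MYC and with CCND1; the signals and differences of NCL, NPM1, LDHA, CDK4, CDK6 and CDKN1B were named after their values were seen. The members and lists were chosen with earlier results of these data known.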

Additional observations from a re-analysis of the deposited data

Results flagged for a closer look

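In 3 member probe sets a construct series and the untreated series moved opposite ways from their 0 h arrays at both 24 and 48 h, and this difference in direction was not tested beyond the limma term, which was not called. MYCN 209757_s_at differed by 0.56 and 0.04 log2 in the truncated series and by −0.44 and −1.11 untreated, a term of 1.07 (limma adjusted p = 0.935). MAX 209331_s_at differed by −0.57 and −0.60 in the full-length series and by 0.03 and 0.49 untreated, a term of −0.84 (limma adjusted p = 1, unadjusted p = 0.0414). MNT 236749_at differed by 3.38 and 0.44 in the truncated series and by −0.47 and −0.83 untreated, a term of 2.56 (limma adjusted p = 0.883) that was 1.12 without the truncated 24 h array. The MNT probe set was at or under the floor on 3 of the 9 arrays.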

How the results depend on the processing

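No direction of a called member reversed under any setting run. The 3 member genes called at 24 h over 0 h became 1 with arrays centred on their median, with no filter and with no mean-variance trend, and 1 to 2 with a series or array left out (1 without the full-length series). The 2 called at 48 h over 0 h became 1 with quantile normalization, centred arrays, no filter, no trend or the brightest probe set without an s or x tag, 0 with the mean of a gene's probe sets, and 1 to 2 with a series or array left out. The 0 called from 24 to 48 h became 1 with log2 of signal plus 16 (MXD1, −0.70, limma adjusted p = 0.0472) and 1 with the mean of a gene's probe sets (CCND1, −0.74, 0.0438). Of member probe sets, the 4 called at 24 h over 0 h became 2 with no trend and 2 to 3 with arrays left out. The 4 called at 48 h over 0 h became 2 with quantile normalization or centred arrays, 1 with no filter, 0 with no trend and 1 to 4 with arrays left out. The 1 called from 24 to 48 h became 0 with centred arrays, no filter or no trend, and 0 to 1 with arrays left out. Over all genes, the 2242 called at 24 h over 0 h became 542 with no trend, 1111 centred, 1264 with no filter, 1386 without the truncated 24 h array and 890, 1375 and 1465 without the full-length, truncated and untreated series; at 48 h the 1156 became 18 with no trend. Among list genes at 24 h over 0 h, ODC1, CDKN1A, GADD45A, ATF3, FOS, JUN, MEIS1, MEIS2 and COL3A1 were called in every setting run, and AMBRA1, HCFC1, MGA, RRS1, E2F2 and TWIST1 in at most 7. At 48 h over 0 h, CAD, CDC20, COL1A1, HCFC1 and SKP2 were called in 5 settings, MLX and CDKN3 in 6, ATF3 and CUL7 in 7, and CCNE2, COL3A1 and E2F2 in 8, each of 13 or 14. No member was called for a construct in any setting that gave a test. Leaving out the 24 h or the 48 h arrays left the construct terms without a test. The labels give no replicate number. Each series was compared with its own 0 h array through the series term, and without that term 3 and 2 member genes were called at 24 and 48 h over 0 h and 2038 and 967 of all genes.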
